A study of Mus musculus with 2 samples.

Results

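General capillary endothelial cells line most of the alveolar capillary bed and share it with aerocytes, the larger capillary cells that lie against the thinnest part of the air-blood barrier. They carry the fenestral diaphragm protein PLVAP and GPIHBP1, which holds lipoprotein lipase on the vessel wall, and they are known as the stem-like cells that renew the capillary bed after lung injury. Barcodes of this type were selected here on their own counts, from 2 droplet libraries of sorted cells of injured mouse lung. One library came from a WT source and the other from a p47phox-KI source (KI below). Both are of strain C57BL/6, both carry the disease label acute lung injury, and no uninjured lung is among them. The gene named in the KI genotype is Ncf1, which encodes p47phox, the organiser subunit of the phagocyte NADPH oxidase; the labels do not describe the allele, the agent and time of injury, the age of the animals or the number of animals behind a library.

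A barcode was taken when it held at least 200 genes and at most 10% mitochondrial counts, at least 3 molecules (UMIs) of Cldn5, Cdh5 and Pecam1 together, at most 1 of Col1a2 and Col3a1 and none of Epcam or Ptprc. It also had to hold at least 3 UMIs of Plvap and Gpihbp1, more than of the aerocyte genes Car4, Ednrb and Fibin, and at most 1 UMI each of the arterial pair Gja5 and Bmx, of Vwf, of the activation pair Inhbb and Adamts9, and of Neurl3, Sox11 and Icam5. The rule found 1366 cells, 652 in WT and 714 in KI, among 8717 endothelial barcodes (4752 and 3965) and 19593 barcodes in all. The levels of these 20 genes chose the cells and are no result. The gated cells held 2239292 UMIs in WT and 2789022 in KI, the median cell having 3127.5 and 3564 UMIs, from 1699.5 and 1893.5 genes. Their median mitochondrial share was 4.71% and 4.74%. In each library 2 gated barcodes had a sequence that also occurs in the other library.

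Each group holds 1 library, so nothing below is a test between genotypes. Levels are CPM values, a gene's share of all UMIs of the gated cells of that library. Ratios are log2 of KI over WT. Brackets give exact 95% intervals, which cover counting error only, and the spread between animals was not measured. A gene was read as measured at a mean of at least 20 CPM, and as past the fold at a log2 ratio of at least 0.5 in either direction. Ncf1 checks nothing in these cells: it had 0 UMIs in WT and 1 in KI. The female-specific transcript Xist stood at 1529 CPM in WT and 1744 CPM in KI, and the 4 Y-linked genes examined had no UMI in the gated cells of either library.

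The general capillary identity was borne out by 4 marker genes that the rule did not use. Npr3, the clearance receptor for natriuretic peptides (ENSMUSG00000022206, GRCm38 chromosome 15, 11839896 to 11907287, minus strand), was at 610 CPM [578, 643] in WT and 621 CPM [592, 651] in KI, against 15.4 and 26.9 CPM in barcodes gated as aerocytes. Kit, the receptor of stem cell factor (chromosome 5, 75574916 to 75656722, plus strand), was at 292 and 357 CPM, against 7.12 and 13.99 CPM in aerocytes. Cd93, a C-type lectin-like receptor of endothelium (chromosome 2, 148436640 to 148443563, minus strand), was at 2817 and 2697 CPM, against 87.9 and 126 CPM. Every one of these marker levels stood far above its aerocyte level in both libraries. Lpl, the lipoprotein lipase that GPIHBP1 anchors (chromosome 8, 68880491 to 68907448, plus strand), was at 783 CPM in WT and 1438 CPM in KI, against 26.1 and 67.8 CPM in aerocytes.

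The same order was seen cell by cell. With each cell thinned to 2000 UMIs, which left out 153 WT and 144 KI cells as too shallow, Cd93 had a UMI in 96.4% [94.4, 97.9] of WT and 95.4% [93.4, 97.0] of KI gated cells. Npr3 had one in 69.1% and 64.0%, Lpl in 64.7% and 81.6%, and Kit in 40.1% and 47.2%. In aerocytes these shares lay between 1.27% (Kit, WT) and 9.78% (Cd93, KI). Fibroblasts, which should lack Kit and Cd93, had a Kit UMI in 0 of 294 WT and 1 of 412 KI cells and a Cd93 UMI in 3.06% and 1.46%, a measure of what RNA free in the droplets can give. Without thinning, 71.6% (WT) and 73.5% (KI) of gated cells had an Npr3 UMI, the reverse of the thinned order.

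Further general capillary genes were also abundant. Ptprb, the endothelial receptor phosphatase VE-PTP, was at 2518 CPM in WT and 2300 CPM in KI (101 and 115 CPM in aerocytes). Sema3c, a secreted semaphorin, was at 1490 and 1487 CPM (373 and 405 CPM in aerocytes), and the TIE2 receptor gene Tek at 412 and 338 CPM (29.6 and 20.9 CPM). Tmem100, a BMP-responsive membrane protein gene, did not separate the gates in WT, where it was at 1668 CPM in the gated cells and 1653 CPM in aerocytes. Glp1r was at only 3.57 and 5.74 CPM. The aerocyte genes ran the other way: Apln, the apelin ligand, was at 28.6 and 37.7 CPM in the gated cells against 449 and 348 CPM in aerocytes, and the transcription factor gene Tbx2 at 45.1 and 44.1 CPM against 548 and 862 CPM.

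**Figure D1:**
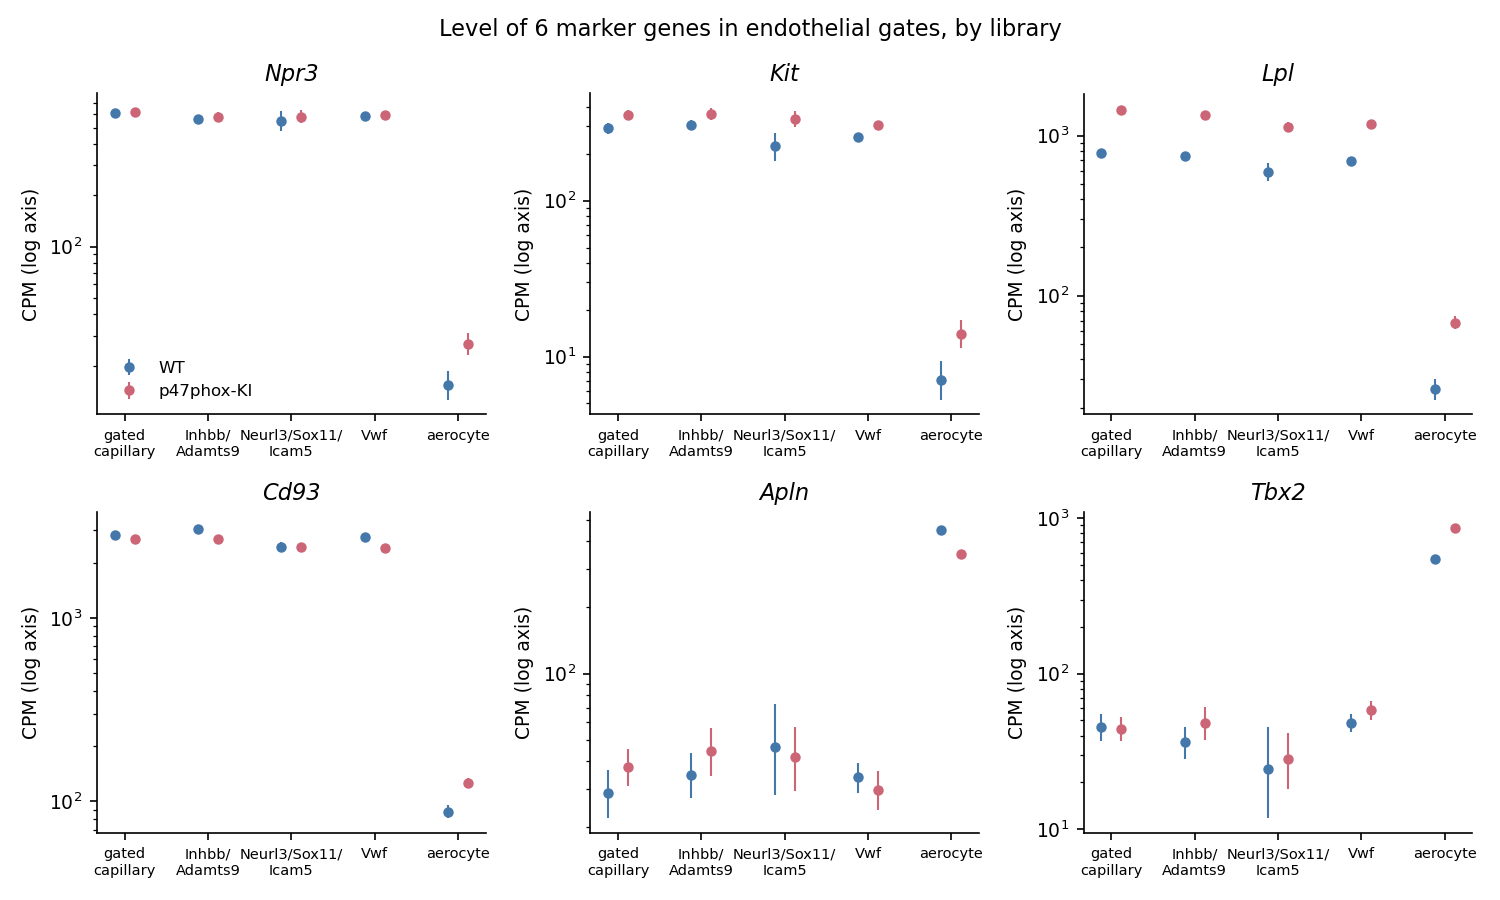
Level of 6 genes (CPM of summed UMIs, log axis) in the gated capillary cells and 4 other endothelial gates, WT in blue and p47phox-KI in red, with exact Poisson 95% intervals for counting error. Npr3, Kit, Lpl and Cd93 stand higher in the gated capillary cells than in aerocytes in both libraries (Npr3 610 against 15.4 CPM in WT), Apln and Tbx2 stand lower, and the 3 other Plvap- or Vwf-gated groups lie close to the gated cells.

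Across the whole transcriptome, 972 of 6739 measured genes (14.4%) were at least 0.5 higher on the log2 scale in the gated cells than in aerocytes in both libraries, and 689 (10.2%) were lower. The rule used this contrast, so these counts only describe it. By the smaller of the libraries' ratios, the genes that led were Edn1, the endothelin-1 precursor (291 against 4.70 CPM in WT, 403 against 11.4 CPM in KI), and Entpd1, the ectonucleotidase CD39 (272 against 7.55 CPM, 239 against 7.97 CPM). Itga6, the laminin-binding integrin alpha 6 chain, and Sema3g, another secreted semaphorin, followed at 516 and 294 CPM in WT. Lowest were Gpnmb (1.34 against 128 CPM in WT, 2.51 against 119 CPM in KI) and Clec4g (3.13 against 105 CPM, 2.15 against 126 CPM), a C-type lectin gene.

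The word resting did not hold for all of the gated cells. Tmem252 (chromosome 19, 24674008 to 24682233, plus strand), a membrane protein gene on the list of endothelial injury and activation genes, was at 1112 CPM in WT and 532 CPM in KI. That is below the 2096 and 904 CPM of the capillary cells set aside for Inhbb and Adamts9, and far above the 36.8 and 36.3 CPM of aerocytes. Ackr3, the scavenger receptor of the chemokine CXCL12, was at 295 and 143 CPM, against 168 and 68.4 CPM in aerocytes. Plaur, the urokinase receptor, was at 253 and 147 CPM, below the 814 and 717 CPM of aerocytes. Lrg1 and Cd24a of the same list were also lower than in aerocytes, Lrg1 at 65.7 and 48.8 CPM against 280.1 and 168.5 CPM. Members of this list thus lay on both sides of their aerocyte levels. Only 17 of 6784 measured genes (0.251%) were at least 0.5 higher in the gated cells than in the Inhbb and Adamts9 gate in both libraries, and 56 (0.826%) were lower. Among the lower genes were the vascular early-response gene Apold1 (55.4 against 108 CPM in WT, 15.8 against 32.7 CPM in KI) and the metallothionein gene Mt1 (443 against 1568 CPM, 260 against 440 CPM). The cells are therefore called gated capillary cells here.

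Against the capillary cells with Neurl3, Sox11 or Icam5, 51 of 6758 measured genes were at least 0.5 higher (0.755%) and 109 lower (1.61%) in both libraries. That gate held 407980 UMIs in WT and 889024 in KI, and the Inhbb and Adamts9 gate 2105413 and 1439120. Smaller sums carry more counting error, so the counts of these gates are not compared. The lower genes were led by heat shock and immediate early genes. Atf3, a stress-induced transcription factor gene, was at 128 CPM in WT and 114 CPM in KI, against 547 and 636 CPM. Hspa1a, an inducible HSP70 gene, was at 683 and 641 CPM, against 2909 and 2678 CPM. The limit of 1 Vwf UMI cut within capillary cells too: it removed 847 WT and 498 KI cells, and endothelial barcodes with 2 or more Vwf UMIs held Npr3 at 584 and 597 CPM and Kit at 256 and 306 CPM, close to the gated cells. Upper limits of this kind keep shallow cells, and the medians of 3127.5 and 3564 UMIs compare with 4436 and 4962 UMIs in the Vwf gate.

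At the lower limit of the rule, the 52 WT and 57 KI cells with exactly 3 UMIs of Plvap and Gpihbp1 held Npr3 at 596 and 519 CPM. The 47 WT and 49 KI barcodes with 2 UMIs, just outside, held Npr3 at 470 and 414 CPM. Sftpc, the surfactant protein C gene of alveolar type II cells, was at 712 and 2224 CPM just inside the limit and at 394 and 466 CPM in cells with 12 or more UMIs. Sftpc thus stood higher near the limit in both libraries, most of all in KI, and its part in the ratios was not tested.

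Markers of other cells were present, and some differed between the libraries. Of 10 leukocyte markers, Tyrobp, Cd3e and Ptprc (set to 0 by the rule) had no UMI in either library, and the list summed to 84.0 CPM in WT and 90.7 CPM in KI. The 11 alveolar epithelial markers summed to 948 and 1233 CPM, of which Sftpc gave 461 and 640 CPM. These sums exceed the levels of Npr3 and Kit, and the 6 measured epithelial members were all above 0 in their KI over WT ratio, with a median of 0.40. The 5 airway markers summed to 343 and 240 CPM. The 9 fibroblast markers summed to 129 and 135 CPM, the 9 mural markers to 142 and 78.5 CPM and the 5 erythroid genes to 5.81 and 46.6 CPM. The lymphatic marker Mmrn1 had 79 UMIs in WT and 0 in KI, while the lymphatic regulator Prox1 had 4 and 1. Lyve1, often read as lymphatic, was at 3479 and 4059 CPM. The part these levels play in the ratios below was not tested.

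The gated cells made up 13.7% [12.7, 14.7] of endothelial barcodes in WT and 18.01% [16.8, 19.2] in KI (log2 ratio 0.39). With no limit on Vwf the shares were 21.6% and 24.6%, a log2 ratio of 0.19. When every barcode was first thinned to 2000 UMIs they were 24.2% and 29.4%. Since the libraries differ in levels of the genes that set the upper limits, a share of this gate is no measure of the number of capillary cells.

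Of 6842 measured genes, 537 (7.85%) were at least 0.5 higher in KI than in WT on the log2 scale, 351 (5.13%) were at least 0.5 lower, and the median ratio was 0.02. The study set WT beside KI lungs, and the next values describe that pair of libraries for the gated cells. The widest gap among the genes ranked was in Cyp26b1 (ENSMUSG00000063415, chromosome 6, 84571414 to 84593908, minus strand), which encodes an enzyme that breaks down retinoic acid. It was at 163 CPM in WT and 13.98 CPM in KI, from 365 and 39 UMIs, which gives a log2 ratio of −3.53 [−4.06, −3.06]. Cells with a UMI were 32.1% of the WT and 4.62% of the KI cells, and after thinning to 2000 UMIs 23.3% [19.6, 27.2] and 2.46% [1.35, 4.09]. The thinned share in fibroblasts was 2.04% and 0.971%. Cyp26b1 was also lower in KI in the 4 other endothelial gates that held UMIs of it in both libraries, from −2.004 in aerocytes (14.1 and 3.46 CPM) to −2.87 in the Inhbb and Adamts9 gate, all of them from the same pair of libraries.

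Among measured retinoid genes Cyp26b1 alone was at least 0.5 lower. Of 20 listed 6 were measured, with a median of 0.32. Of the 6, 2 were at least 0.5 higher and 1 lower, against 7.85% and 5.13% of all genes. Rxra, a retinoid X receptor gene, was at 22.3 CPM in WT and 40.5 CPM in KI (0.85), and Aldh1a1, which makes retinoic acid from retinal, at 14.3 and 27.2 CPM (0.92). Both levels were low and the ratios moved. Rxra was 0.27 with cells thinned to 2000 UMIs and 1.37 at a mitochondrial limit of 5%. Aldh1a1 was 1.44 and 0.28 at the same settings. Tgm2, a transglutaminase gene known to respond to retinoic acid, was at 327 and 323 CPM. Cyp26a1 and Cyp26c1, the other members of the enzyme family, had no UMI in either library.

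Of the other 9 lowest-ranked genes, 7 are given here. Cebpb, a transcription factor gene of the acute-phase response (chromosome 2, 167688915 to 167690418, plus strand), was at 273 CPM in WT and 94.3 CPM in KI (log2 ratio −1.53 [−1.75, −1.32]). The Cebpb level was 11.8 times higher in the WT leukocyte gate, and the part of RNA free in the droplets was not tested. Nckap5 was at 210 and 76.7 CPM (−1.45 [−1.69, −1.22]), and Tmtc2, a gene of the endoplasmic reticulum membrane, at 114 and 40.9 CPM (−1.47). Each of these genes, ranked on the same UMIs, was found in a smaller share of KI than of WT cells (Nckap5 22.7% against 45.9%). Sh3pxd2a, the podosome scaffold TKS5, was at 251 and 103 CPM, Tbc1d8 at 150 and 66.3 CPM, and Odc1, the first enzyme of polyamine synthesis, at 101 and 43.4 CPM. Mlec, an endoplasmic reticulum lectin gene, was at 292 and 129 CPM (−1.17 [−1.36, −0.99]).

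The remaining pair rested on few cells. Thbs1, the matrix glycoprotein thrombospondin 1 and the lowest ratio after Cyp26b1, was at 131 CPM in WT and 44.8 CPM in KI (−1.54), with 49.1% of its WT UMIs in 5 cells, and its level was 19.1 times higher in WT fibroblasts. Without the 5 highest cells of each library its ratio was −0.89. Dnajb1, an HSP40 co-chaperone gene, was at 171 and 75.3 CPM (−1.18), with 63.2% of its WT UMIs in 5 cells. Without the 5 highest cells of each library the Dnajb1 ratio was 0.058. Cells with a Dnajb1 UMI were 14.4% of the WT and 20.5% of the KI cells. After thinning to 2000 UMIs these shares were level, at 10.4% and 10.5%.

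The highest ratios were led by Oasl2, an interferon-induced relative of the oligoadenylate synthetases (chromosome 5, 114896936 to 114912234, plus strand). It was at 45.6 CPM in WT and 137 CPM in KI (log2 ratio 1.59 [1.27, 1.92]), and was found in 12.4% and 33.5% of cells. Plxna1, a semaphorin receptor gene, was at 45.6 and 129 CPM (1.498), and Stk4, the Hippo pathway kinase MST1, at 43.3 and 110 CPM (1.35). Sult1a1, a sulfotransferase gene, was at 53.1 and 133 CPM (1.32). Gpr182, an endothelial scavenger receptor of chemokines, was at 44.2 and 106 CPM (1.25), and the phosphatase gene Dusp23 at 33.9 and 73.9 CPM (1.12). All 10 of the highest-ranked genes were found in a larger share of KI than of WT cells, also after thinning (Oasl2 6.81% and 22.6%). They were ranked on UMIs of these same cells, so the shares are no separate support.

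Sox18, a transcription factor gene of endothelial differentiation (chromosome 2, 181669836 to 181671640, minus strand), was at 84.4 CPM in WT and 211 CPM in KI (log2 ratio 1.32 [1.08, 1.56]). After thinning it was found in 14.8% and 34.0% of cells, against 0 of 294 WT and 1 of 412 KI fibroblasts. Its relatives did not share this gap: Sox17 was at 133 and 137 CPM and Sox7 at 65.7 and 70.6 CPM. Of 22 measured endothelial transcription factor genes, 2 were at least 0.5 higher (Sox18 and Foxo1), against 7.85% of all genes. Another 2 were at least 0.5 lower, against 5.13%, and the median was 0.04. The lower pair were Foxf1, a regulator of lung vessels (1423 and 944 CPM), and Nr2f2, the venous factor COUP-TFII (45.5 and 24.7 CPM).

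**Figure D2:**
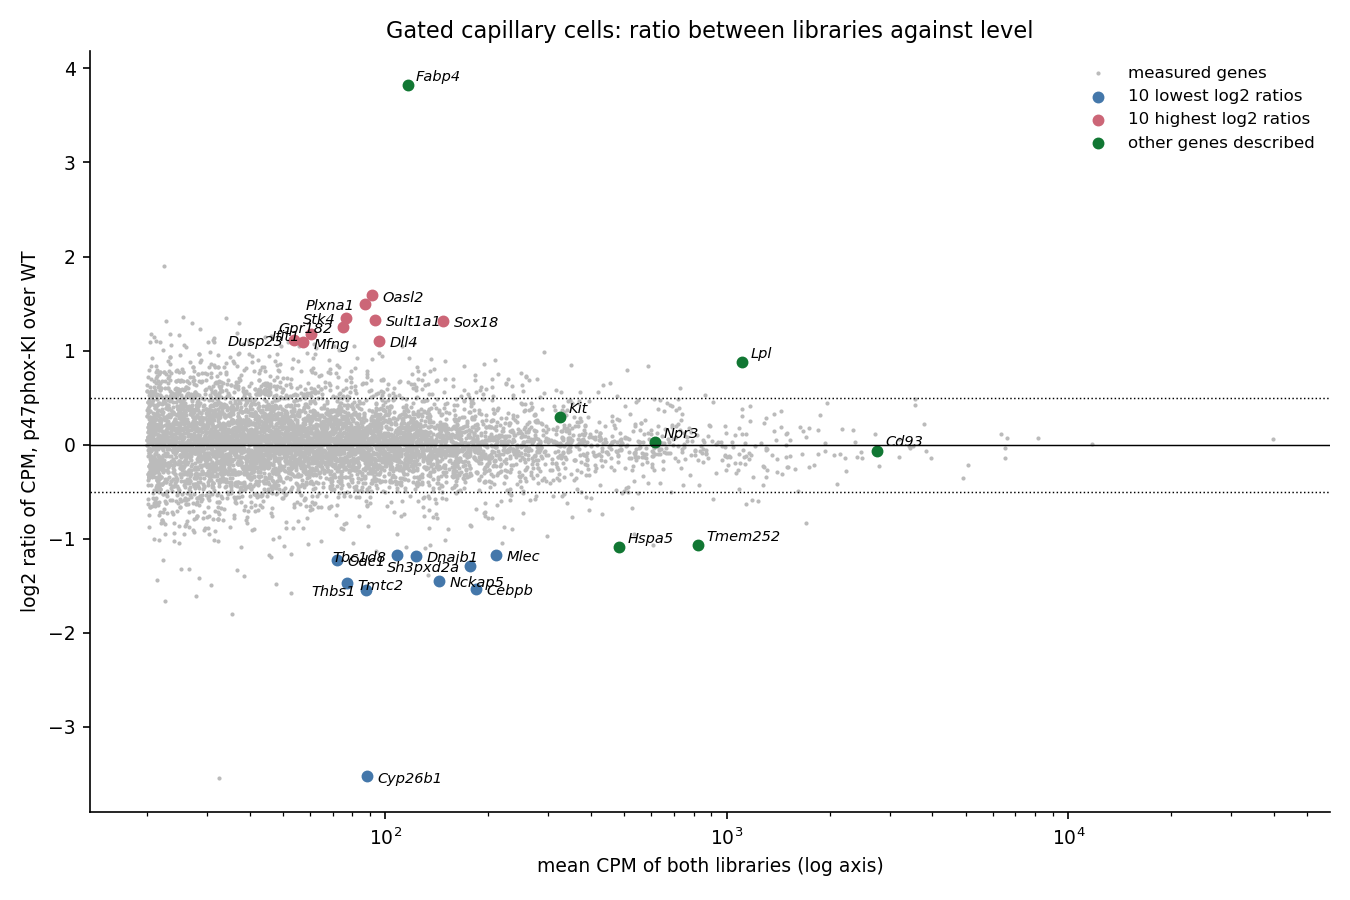
Log2 ratio of CPM, p47phox-KI over WT, against the mean CPM of both libraries (log axis) for the 6842 measured genes of the gated capillary cells (1 grey point each). The 10 lowest ranked genes are blue, the 10 highest red and other genes described are green; dotted lines mark 0.5 in either direction. Cyp26b1 at −3.53 lies apart from the other ranked genes, which lie between −1.54 and −1.17 or between 1.09 and 1.59.

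Interferon-stimulated genes encode the antiviral and signalling proteins that type I interferon induces. Of 32 on the list 22 were measured; 10 were at least 0.5 higher in KI, against 7.85% of all measured genes, and none was at least 0.5 lower, with a median of 0.41. Besides Oasl2 they included Ifit1 (37.1 CPM in WT and 83.9 CPM in KI), the deubiquitinating-type protease gene Usp18 (17.0 and 40.2 CPM), the ubiquitin-like modifier gene Isg15 (39.7 and 78.2 CPM), Rtp4, Cmpk2, Ifit3, Ifi35 and Stat2. The median of the list was 0.21 with cells thinned to 2000 UMIs and 0.56 with every upper limit of the rule at 0. The abundant members differed less: Bst2, which tethers virions, was at 729 and 780 CPM, and Ifitm3, which blocks viral entry, at 2444 and 2010 CPM. Genes more typical of interferon gamma followed in part, with 3 of 10 measured (Gbp7, Igtp and Irgm1) at least 0.5 higher, against 7.85% of all genes, and a median of 0.30.

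To set the sequences of this list beside its values, the RefSeq promoters of its members (250 bases before to 50 after the start, GRCm38.p6, strand of the gene) were searched on both strands for the interferon-stimulated response element (GAAA, any 2 bases, GAAA), and 17 of the 22 measured members were in the promoter table. The motif was in 10 of these 17 windows (58.8%), against 3.49% of 27025 promoters. It was in 4 of the 7 windows of members at least 0.5 higher and in 6 of the 10 others. Shown are a member with 2 matches, a member with 3 that overlap, and the member with the highest ratio, in which these letters do not occur. Capitals mark the match. They are Ifit1 (GRCm38.p6 chromosome 19, 34640639 to 34640938, plus strand), Isg15 (GRCm38.p6 chromosome 4, 156200769 to 156201068, minus strand) and Oasl2 (GRCm38.p6 chromosome 5, 114896684 to 114896983, plus strand); the first bases of the matches lie at −104 and −85 in Ifit1, where they are on the opposite strand, and at −78, −72 and −66 in Isg15, counted from the first transcribed base as 0.
Ifit1: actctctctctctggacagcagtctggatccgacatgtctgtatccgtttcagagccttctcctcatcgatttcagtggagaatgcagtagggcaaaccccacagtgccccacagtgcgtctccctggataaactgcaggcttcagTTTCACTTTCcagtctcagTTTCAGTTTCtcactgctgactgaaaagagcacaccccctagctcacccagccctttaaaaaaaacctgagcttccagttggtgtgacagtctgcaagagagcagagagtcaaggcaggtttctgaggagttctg
Isg15: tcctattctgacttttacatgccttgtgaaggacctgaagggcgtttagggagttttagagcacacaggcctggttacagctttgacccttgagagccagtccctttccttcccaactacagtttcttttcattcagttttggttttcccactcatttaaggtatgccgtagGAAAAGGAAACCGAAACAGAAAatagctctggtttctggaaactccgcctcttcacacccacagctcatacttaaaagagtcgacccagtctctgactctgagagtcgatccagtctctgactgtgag
Oasl2: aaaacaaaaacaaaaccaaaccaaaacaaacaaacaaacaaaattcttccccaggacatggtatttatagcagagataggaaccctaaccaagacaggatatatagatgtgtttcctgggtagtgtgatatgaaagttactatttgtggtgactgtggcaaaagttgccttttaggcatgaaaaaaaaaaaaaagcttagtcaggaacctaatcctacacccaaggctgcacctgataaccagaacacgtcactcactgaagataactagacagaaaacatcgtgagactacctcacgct

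Antigen presentation genes differed less. All 15 genes of the MHC class I list, which shows peptides from inside the cell, were measured, and none passed 0.5 in either direction (median −0.01; H2-K1 was at 3433 and 3400 CPM). The 6 measured MHC class II genes were all above 0, with a median of 0.31, and 1 passed 0.5, against 7.85% of all genes. It was Cd74, the invariant chain, at 393 CPM in WT and 563 CPM in KI (0.52 [0.40, 0.64]). In the sub-cluster of gated cells that Cd74 led (sub-cluster 3, described below) it was level at 1058 and 1037 CPM (−0.03 [−0.18, 0.12]). In every other sub-cluster Cd74 was higher in KI, with intervals above 0. Its ratio was 1.01 and 0.97 in sub-clusters 1 and 2, and 0.75 in sub-clusters 5 and 6. In sub-cluster 4 it was 3.76, from 1 UMI in WT and 20 in KI. The Cd74 ratio was 0.37 with the sub-clusters weighted alike and 0.13 at a mitochondrial limit of 5%.

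Genes of endothelial injury and activation were lower in KI. Of 8 measured members that the rule did not use, 6 were at least 0.5 lower, against 5.13% of all genes, and none was higher, with a median of −0.72. Tmem252 had a ratio of −1.06 [−1.16, −0.97] and Ackr3 of −1.04 [−1.23, −0.86]. Apold1, at 55.4 and 15.8 CPM, had the lowest ratio of the list, −1.80. Plaur (−0.78), the adhesion glycoprotein gene Cd24a (−0.55) and the neurotrophin receptor gene Ntrk2 (−0.66) were the others. The rule removes cells with 2 or more UMIs of Inhbb or Adamts9, which were themselves at 37.1 and 28.0 CPM and at 79.9 and 59.2 CPM in the cells kept. Tmem252 was also lower in KI in the Inhbb and Adamts9 gate (−1.21) and level in aerocytes (−0.02).

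Chaperones of the endoplasmic reticulum, which fold secreted and membrane proteins, leaned the same way. Of 19 measured members 17 were below 0 and 4 at least 0.5 lower, against 5.13% of all genes, with a median of −0.34 and none at least 0.5 higher. Hspa5, the main chaperone BiP (chromosome 2, 34771970 to 34777547, plus strand), was at 658 CPM in WT and 308 CPM in KI (log2 ratio −1.09 [−1.22, −0.97]). The other 3 were the lectin chaperone gene Calr (604 and 424 CPM), Sdf2l1 (37.1 and 23.3 CPM) and Creld2 (30.8 and 20.4 CPM). Canx, a further lectin chaperone gene, was at 253 and 303 CPM, and Herpud1, a gene of protein degradation at the same membrane, at 123 and 147 CPM. Hspa5 was at 744 and 627 CPM in aerocytes (−0.25) and at 1557 and 882 CPM in fibroblasts (−0.82).

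Heat shock genes, which help to refold damaged proteins, ran in both directions, with 7 of 19 measured above 0 and 12 below. Of the 19, 4 were at least 0.5 lower, against 5.13% of all genes, and none was at least 0.5 higher. The median was −0.09, and 0.13 with no limit on Vwf. Hspa1a was at 683 CPM in WT and 641 CPM in KI and Hspa1b at 288 and 396 CPM. Hspb1 was at 646 and 454 CPM and Hsp90aa1 at 369 and 252 CPM. Of the 4 lower members only Dnajb4 stayed past 0.5 in every alternative (−0.89 to −0.51). The ratio of Hspb1 was −0.06 with no limit on Vwf, and that of Hsp90aa1 −0.30 as a mean of per-cell CPM. For Dnajb1 it was 0.058 without the 5 highest cells of each library. The heat shock element (GAA, TTC and GAA, each 2 bases apart), searched on both strands, was in 3 of 15 listed promoters (Hspe1, Hsph1 and Chordc1) and in 0.529% of all promoters, and not in the windows of the 3 lower members that were listed. Of 15 measured immediate early genes 1 passed 0.5, the AP-1 gene Fosl2, which was lower, against 5.13% of all genes.

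Transcription factors of flow and inflammation differed between members. Among 9 measured Kruppel-like factors, 3 were at least 0.5 lower, against 5.13% of all genes (Klf6 at 703 and 363 CPM, Klf3 at 646 and 405 CPM, Klf9 at 804 and 568 CPM) and Klf10 was higher (25.01 and 49.1 CPM). Klf2, which responds to shear flow, was at 1068 CPM in WT and 1272 CPM in KI, and Klf4 at 853 and 636 CPM. On the NF-kB list 3 of 11 were at least 0.5 lower, against the same 5.13%, with a median of −0.23: Relb (32.2 and 15.8 CPM), Bcl3 (36.2 and 19.0 CPM) and the inhibitor gene Tnfaip3 (30.4 and 20.1 CPM). The precursor gene Nfkb1 was at 102 and 138 CPM. Icam1, a ligand of leukocyte integrins, was at 405 and 317 CPM, and none of 6 measured leukocyte adhesion genes passed 0.5.

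Lipid handling, a known task of these cells, held a large gap in an abundant gene. Lpl had a log2 ratio of 0.88 [0.80, 0.96], and Hilpda, an inhibitor of fat breakdown in lipid droplets, was at 339 CPM in WT and 526 CPM in KI (0.63). Of 10 measured members of the lipid uptake list that the rule did not use, 3 were at least 0.5 higher, against 7.85% of all genes, and none lower, with a median of 0.26. Cd36, the fatty acid receptor, was at 1470 and 1326 CPM, and Pnpla2, a triglyceride lipase gene, at 185 and 240 CPM. The third member past 0.5 was Fabp4, a fatty acid carrier, at 15.2 and 217 CPM (3.82). Fabp4 was found in only 10 WT and 21 KI cells, with 87.8% of its KI UMIs in 5 cells, which leaves Lpl and Hilpda. In the leukocyte gate, which in lung can hold alveolar macrophages, Lpl was at 144 and 770 CPM and Fabp4 at 49.5 and 434 CPM; the part of RNA from such cells was not tested. The Lpl ratio was 0.84 in the Inhbb and Adamts9 gate and 1.38 in aerocytes, and 0.89 without the 5 highest cells of each library.

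Notch and BMP signalling were read by role. Among Notch ligands, Dll4 was at 60.7 CPM in WT and 131 CPM in KI (log2 ratio 1.10 [0.82, 1.40]), while Jag1 was at 67.4 and 64.9 CPM and Dll1 at 88.4 and 87.1 CPM. Mfng, a glycosyltransferase that tunes Notch for its ligands and is not on the list counted, was at 36.6 and 78.2 CPM (1.09). The receptors Notch1 and Notch4 were at 368 and 394 CPM and at 203 and 255 CPM. Among target genes Hey1 was at 159 and 268 CPM (0.75), Hes1 at 176 and 146 CPM and Nrarp at 98.2 CPM in each library. Of 10 measured genes on the Notch list, Dll4 and Hey1 were at least 0.5 higher, against 7.85% of all genes, and none was lower.

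Among BMP genes the ligand Bmp6 was lower in KI, at 488 CPM in WT and 301 CPM in KI (−0.70 [−0.83, −0.56]). The minor ligand Bmp4 was at 19.7 and 28.7 CPM. The receptors differed little: Bmpr2 was at 1498 and 1553 CPM and Acvrl1 at 1020 and 949 CPM. Of target and feedback genes, Id3 and Smad7 passed 0.5 and Id1 and Smad6 did not, with Id3 at 372 and 645 CPM (0.80 [0.68, 0.92]), Id1 at 598 and 838 CPM (0.49), Smad7 at 253 and 380 CPM (0.58) and Smad6 at 459 and 628 CPM (0.45). Of 13 measured, 3 were at least 0.5 higher and Bmp6 lower, against 7.85% and 5.13% of all genes, with a median of 0.14. The median was −0.020 when every upper limit of the rule was set to 0.

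**Figure D3:**
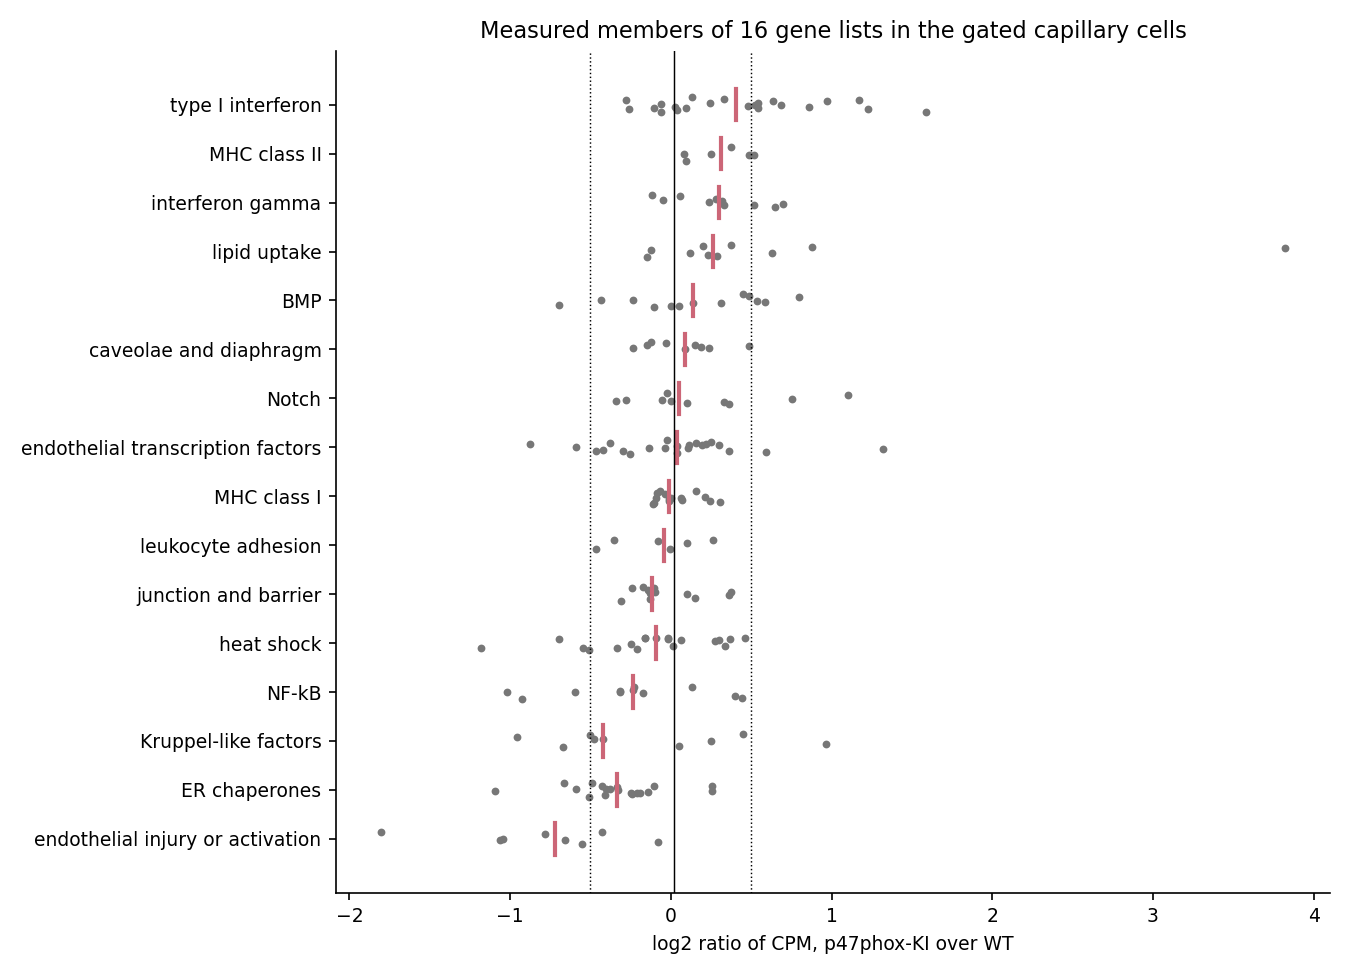
Log2 ratio of CPM, p47phox-KI over WT, of the measured members of 16 gene lists in the gated capillary cells (1 point per gene; red bars are list medians, the solid line is the median of all measured genes, dotted lines mark 0.5 in either direction). The type I interferon list has the highest median, 0.41, and the list of endothelial injury and activation the lowest, −0.72; the Fabp4 point at 3.82 rests on few cells.

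Some functions of capillary endothelium held no gene past 0.5, and others held a few. None of 9 measured genes of caveolae and the fenestral diaphragm passed 0.5 (Cav1 was at 1884 CPM in WT and 1604 CPM in KI), and none of 12 junction and barrier genes did (Esam at 1560 and 1429 CPM). Kdr, the main VEGF receptor, was at 247 and 233 CPM. Vegfc, a ligand of lymphatic growth, was at 86.6 and 42.7 CPM (−1.02). It was the 1 gene past 0.5 of 8 measured on the VEGF and apelin list, against 5.13% of all genes lower. Nos3, the endothelial nitric oxide synthase, was at 35.3 and 35.5 CPM, while Nostrin, which guides its traffic, was at 289 and 157 CPM (−0.88). On the list of nitric oxide, natriuretic peptide and endothelin genes 2 of 10 measured were at least 0.5 lower, against 5.13% of all genes. They were Nostrin and Gucy1a1 (−0.87), and Gucy1a1 was at 0.17 without the sub-cluster led by fibroblast genes. Of the NADPH oxidase list only 2 of 13 genes were measured, neither past 0.5, and Cybb and Ncf4 had no UMI in either library.

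Hormone and clock genes were mixed. Per1 was at 163 CPM in WT and 96.8 CPM in KI (−0.75), and 3 of 9 measured circadian genes were at least 0.5 lower, against 5.13% of all genes (Per1, Cry1 and Cry2), with Tef higher. Glucocorticoid targets ran in both directions: Sult1a1 was higher, Mt1, Klf9, Per1 and Lcn2 lower, and Fkbp5 was at 139 and 148 CPM. Several cell cycle transcripts rested on few cells. Of 30 listed 6 were measured, and Ube2c, Hmgb2 and Stmn1 were at least 0.5 lower, against 5.13% of all genes. Ube2c had 77 UMIs in WT and 30 in KI, 89.6% and 76.7% of them in 5 cells, and Mki67 had 41 and 5 UMIs. Without the 5 highest cells of each library the ratio of Hmgb2 was 0.24. Stmn1, a microtubule regulator, was found in 41.1% and 40.6% of cells and stood at 263 and 173 CPM (−0.60).

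Unsupervised clustering of the 1366 gated cells, without the genes of the rule, gave 6 sub-clusters, which are described by their leading genes and not named. The largest (429 cells, sub-cluster 1) was led by Stard9, Stxbp5 and Tnik at a low median of 2453 UMIs. Sub-cluster 2 (220 cells) was led by Ackr3, Tmem252, Plaur, Mt1, Vegfc and Cebpb, genes that go against the word resting. Sub-cluster 3 (341 cells) was led by the MHC class II genes Cd74, H2-Ab1 and H2-Eb1 with Cxcl12 and Gja4. Sub-cluster 4 (48 cells) was led by Spp1, Gsn, Pdgfra, Mfap4, Inmt and Ager, genes of fibroblasts and alveolar epithelium. Sub-cluster 5 (152 cells) was led by Hspa1a, Hspa1b, Atf3 and Fos, and sub-cluster 6 (176 cells, median 2079 UMIs) by Hmgb2, Stmn1 and ribosomal protein genes. Since some leading genes differ between libraries, the sizes are not compared between them.

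Of the 20 ranked genes, 15 kept the sign of their ratio in all 6 sub-clusters. The ranking used the summed UMIs of these same cells, so agreement of signs is in part built in. The share of all measured genes that keep their sign was not computed. Thbs1, Stk4, Ifit1 and Dusp23 kept it in 5 and Dnajb1 in 2, with Dnajb1 at −2.34 in sub-cluster 5 and at 1.14 in sub-cluster 2. Sub-cluster 4 had few UMIs (8 and 1 for Cyp26b1), and the intervals of Lpl, Sox18 and Oasl2 span 0 there. Cyp26b1 was at 101 to 220 CPM in WT and 8.85 to 16 CPM in KI, with ratios from −3.99 to −2.52. Lpl ratios lay between 0.55 and 1.38, Sox18 ratios between 1.07 and 1.70 and Oasl2 ratios between 1.21 and 2.34. Tmem252 was lower in KI in each of the 6, from −1.37 to −0.34, and in sub-cluster 2, where it was highest, it was at 1671 CPM in WT and 806 CPM in KI. Hspa5 ratios lay between −1.69 and −0.10, the last in sub-cluster 4, with an interval of [−0.85, 0.64]. With the sub-clusters weighted alike in both libraries the ratio was −0.94 for Tmem252, −0.75 for Ackr3 and −1.35 for Cebpb, and −1.11 for Hspa5.

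**Figure D4:**
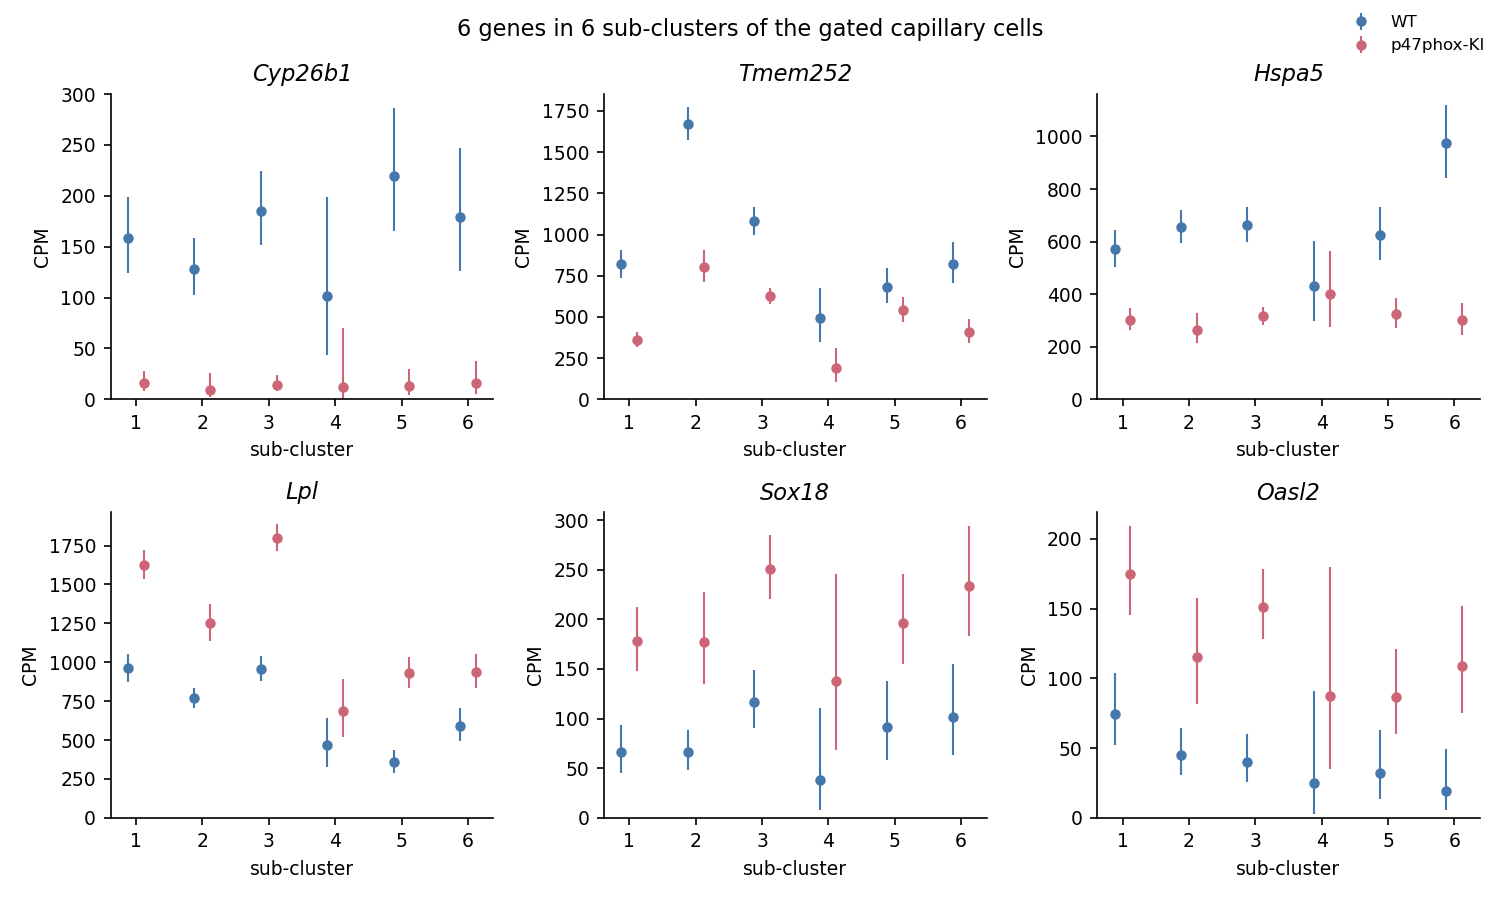
Level of 6 genes (CPM, linear axes from 0) in the 6 sub-clusters of the gated capillary cells, WT in blue and p47phox-KI in red, with exact Poisson 95% intervals for counting error. Cyp26b1 is between 101 and 220 CPM in WT and at most 16 CPM in KI in each sub-cluster, and Lpl, Sox18 and Oasl2 are higher in KI in each, with wide intervals in sub-cluster 4, where Hspa5 is level.

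Set beside other endothelial gates of the same libraries, 19 of the 20 ranked genes had the same sign in aerocytes, in the Inhbb and Adamts9 gate and in the Neurl3, Sox11 and Icam5 gate, and the exception was Dnajb1. In the Vwf gate it was again 19 of 20, without Dnajb1. In the arterial gate, of 18 WT and 22 KI cells, it was 18 of 20, with Tbc1d8 at 0.15 and Sult1a1 at −0.27. All gates come from the same pair of libraries, so these counts are no replication. The share of all measured genes with the same sign in these gates was not computed. Sizes differed by gate: Cebpb was −1.17 and −1.03 in the other capillary gates and −0.24 in aerocytes, and Plxna1 was 1.75 and 1.63 against 0.55. Odc1 was −1.12 and −1.45 against −0.19. With 1 library per group, whether these ratios differ between gates was not tested. Sox18, in contrast, was 1.07 in aerocytes and between 1.18 and 1.32 in the capillary gates.

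**Figure D5:**
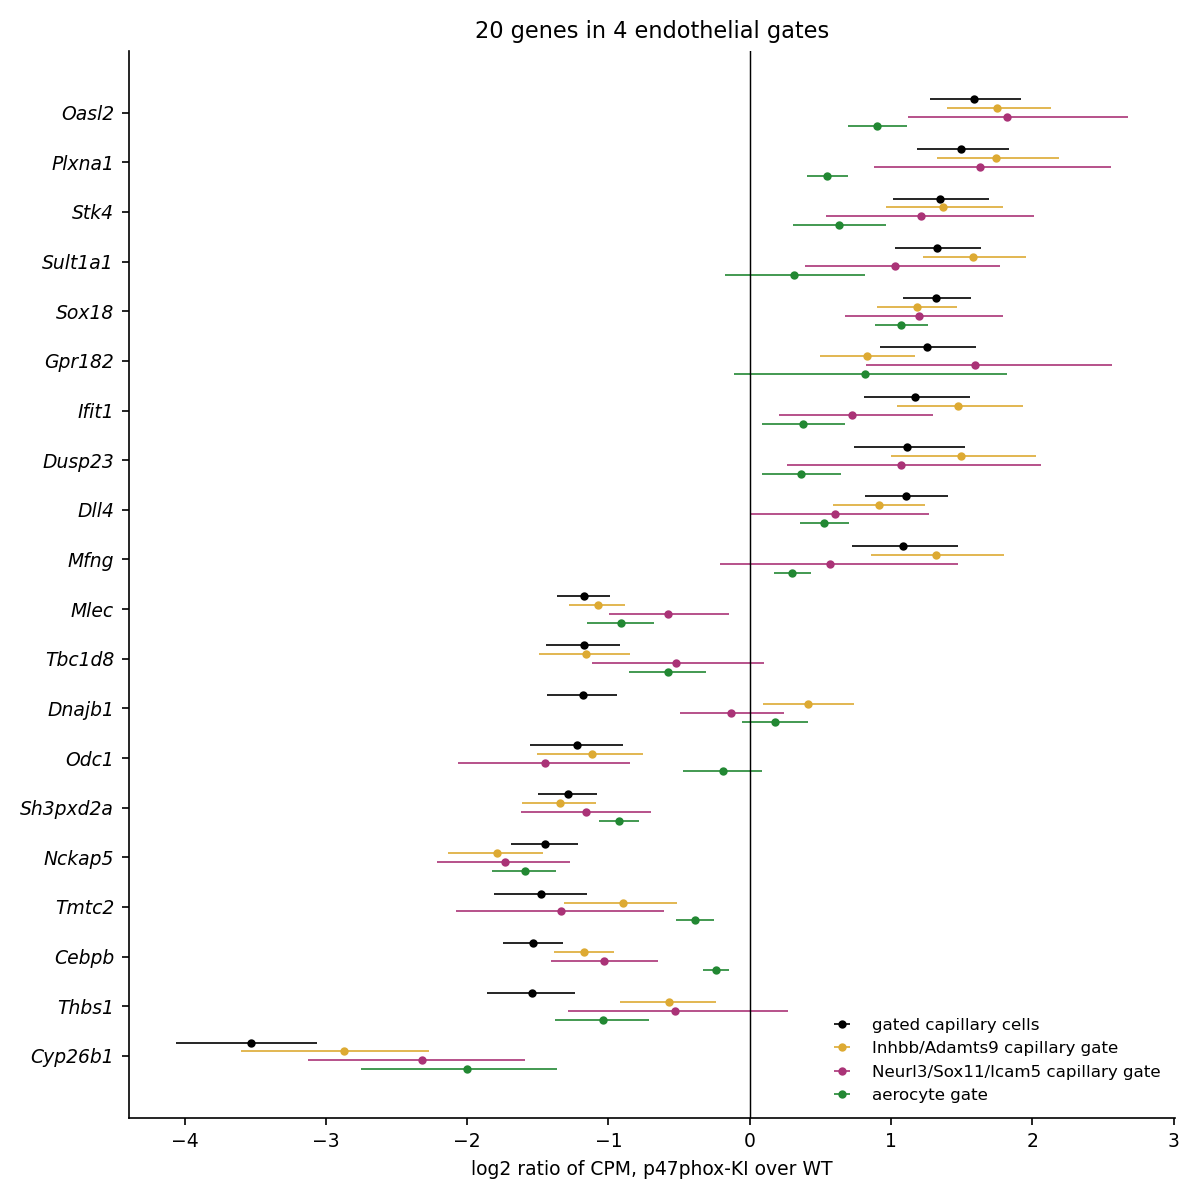
Log2 ratio of CPM, p47phox-KI over WT, of the 20 ranked genes in the gated capillary cells (black) and 3 other endothelial gates, with exact 95% intervals for counting error. Cyp26b1 is below 0 in all 4 gates (−3.53 in the gated capillary cells, −2.004 in aerocytes), the 10 highest genes are above 0 in all 4, and Dnajb1 lies on both sides of 0.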

How the data were processed

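Raw UMI counts were deposited by the authors as 1 matrix per library, and the entries are whole numbers. Tools listed in the submitters' processing notes are Cell Ranger 2.0, R 3.5.3 and Seurat 2.3.4, with build mm10, whereas the file headers give 3.0.2 as the version that wrote the matrices. Per the labels' protocols, perfused lungs were digested with collagenase, erythrocytes lysed, and cells stained for viability and CD45.2 and sorted; the gate is not given in the sources used here. The 10x V3 chemistry tags transcripts near their 3' end and counts molecules by UMI. The libraries hold 43376713 (WT) and 43445797 (KI) UMIs over 31053 genes, and no barcode has under 500 UMIs.

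The cells, gene lists and members were chosen with earlier results of these data known, so no list is independent support. Cells were selected by the rule in the report, their counts summed per library, and CPM, ratios (0.5 counts added to each sum) and exact Poisson, conditional binomial and Clopper-Pearson intervals computed (scipy 1.17.1). Ranked genes are the 10 highest and 10 lowest ratios at a mean of at least 50 CPM with a UMI in at least 10% of gated cells of either library. The ranking left out genes of the rule, sex-linked, mitochondrial, ribosomal, haemoglobin and unnamed genes, and genes over 20 times lower than in the leukocyte, epithelial, fibroblast or mural gate. From each of 46 lists at most 4 measured members with the largest ratios were tried under the alternatives; other values named in the text were chosen after they were seen. Doublets were kept: Scrublet (scanpy 1.11.5) marked 0 barcodes by its automatic threshold, so an alternative left out the top-scored 0.8% per 1000 barcodes, which marked 38 WT and 27 KI gated cells. Sub-clusters used 1500 variable genes, 20 components, 15 neighbours and Leiden resolution 0.6. The code for the ratios was tested on simulated data. TMM factors came from edgeR 4.0.16, with no test. Gene positions are from GENCODE M21. Results for some listed genes are not reported here.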

Additional observations from a re-analysis of the deposited data

Results flagged for a closer look

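The ranked genes, the largest ratios of each list, Lpl and Gdf15 were compared with aerocytes and the Inhbb and Adamts9 and the Neurl3, Sox11 and Icam5 gates. In 4 of these genes the ratio was at least 0.5 in size and of opposite sign in the gated cells and another of these gates, with both counting intervals clear of 0. The Vwf gate was not part of that comparison, and there Dnajb1 was at 0.74, against −1.18 in the gated cells. The difference between gates was not tested, since each group holds 1 library. Gdf15, a stress-induced cytokine of the TGF-beta family (chromosome 8, 70629393 to 70632456, minus strand) and a gene chosen after its values were seen, was at 824 CPM in WT and 394 CPM in KI in the gated cells (−1.07 [−1.18, −0.96]). In aerocytes it was at 805 and 1655 CPM (1.04 [0.99, 1.09]). Gdf15 was also lower in KI in the other capillary gates (−0.92 and −1.07) and higher in the leukocyte gate (126 and 455 CPM).

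Cd74 was higher in KI in the gated cells (0.52) and lower in aerocytes, at 60.4 and 41.5 CPM (−0.54). Ager, a gene of alveolar type I cells, had a ratio of 0.81 in the gated cells and of −2.22 in the Neurl3, Sox11 and Icam5 gate (137 and 29.2 CPM), and 62.9% of its KI UMIs in the gated cells were in 5 cells. Hmgb2 was at −0.57 in the gated cells and at 0.58 in the Neurl3, Sox11 and Icam5 gate (127 and 191 CPM), and 48.9% of its WT UMIs in the gated cells were in 5 cells.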

How the results depend on the processing

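The ratio of Cyp26b1 stayed between −4.11 and −3.05 over 14 alternatives, Lpl between 0.75 and 0.94, Oasl2 between 1.504 and 1.69 and Hspa5 between −1.14 and −1.01. Of 280 values of the 20 ranked genes, 261 moved by less than their counting interval, 18 moved further and 1 changed sign. Genes at least 0.5 higher and lower in KI numbered 1203 and 870 at a mean of at least 5 CPM, and 863 and 630 with every upper limit of the rule at 0, which leaves fewer cells. With cells thinned to 2000 UMIs 537 genes were lower. The log2 ratio of the shares of gated cells was 0.19 with no limit on Vwf, an alternative chosen after seeing the data, like those on sub-clusters and highest cells. With every upper limit at 0 the BMP median was −0.020, Ager −0.033 and Serpine2 0.26. Thinned to 2000 UMIs, Hmgb2 was 0.020. As a mean of per-cell CPM Lcn2 was 0.045. Without the sub-cluster led by fibroblast genes Gucy1a1 was 0.17. Without the 5 highest cells of each gene Dnajb1 was 0.058, Ager −0.040, Lcn2 0.23 and Hmgb2 0.24. The share of cells with a UMI, KI minus WT, turned to 1.90 percentage points for Npr3 and −1.25 for Xist without thinning, and to −0.37 for Kit when thinned to 1000 UMIs. Beyond these constructions the cause was not tested. No paired analysis was possible because each group holds 1 library. Depth limits genes under about 20 CPM: 3 counts in the gated cells amount to 1.34 CPM in WT and 1.08 CPM in KI.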
